A study of Mus musculus with 31 samples.

Results

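The clustered protocadherin genes of the mouse are 57 protein-coding genes whose symbols begin with Pcdha, Pcdhb or Pcdhg, out of 17331 protein-coding genes whose start could be placed. They lie side by side on chromosome 18 (mm10) between positions 36930285 and 37841873, a stretch of 911.6 kb. The alpha cluster holds 14 of them (36930285 to 37188897), the beta cluster 22 (37264998 to 37521419) and the gamma cluster 21 (37661775 to 37841873). A member was counted as marked in a library when a deposited peak lay within 2 kb of its own start. In the alpha and gamma clusters this start is the end of the gene model that a member does not share with its neighbours. Beta genes share neither end, and their lower coordinate was taken as the start.

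Protocadherins of these clusters are cell-surface adhesion proteins through which a neuron recognises its own branches. In the alpha and gamma clusters each gene brings its own promoter and large variable exon, which is spliced to constant exons shared by the cluster, whereas beta genes have a single coding exon and share none. A neuron uses only a few of the alternate genes, chosen in part at random with the help of the insulator protein CTCF and cohesin, while the C-type genes at the downstream ends of the alpha and gamma clusters are used by most neurons. Trimethylation of histone H3 at lysine 4 (H3K4me3) marks promoters that are in use or ready for use, and monomethylation at the same lysine (H3K4me1) is found mostly at enhancers. By these names the 57 members divide into 5 C-type genes (Pcdhac1, Pcdhac2, Pcdhgc3, Pcdhgc4 and Pcdhgc5) and 52 alternates: 12 in the alpha cluster, all 22 beta genes, and 18 in the gamma cluster, of which 12 are of the A type and 6 of the B type.

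The study profiled both marks by ChIP-seq in whole hippocampus from C57BL6 mice, 30 days old, in 31 libraries from 16 animals. The groups were KMT2D+/bGeo heterozygotes given TAK-418, heterozygotes given vehicle, KMT2D+/+ wild type mice given TAK-418, and wild type mice given vehicle. Kmt2d encodes a methyltransferase of lysine 4, and the heterozygotes, which carry the allele in all cells, are a model of Kabuki syndrome. TAK-418 inhibits the demethylase LSD1 and was given by gavage at 1 mg/kg/day for 2 weeks, and the controls received its solvent methylcellulose. Each group had 4 H3K4me3 libraries, each from another mouse, and the same number of H3K4me1 libraries but for the wild type mice given TAK-418, which had 3. The sources used here give neither sex nor sequencing dates, and peak lists cannot check the genotype. In tissue of mixed cells, a weaker peak from fewer cells that carry the mark and one from less of the mark in each cell cannot be told apart.

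The length of the peak lists differed widely between libraries. In each group 1 H3K4me3 library carried an index barcode that, by knowledge of the library kit, belongs to index sets 1 and 2, and these 4 had long peak lists of 13343 to 16750 peaks. They are heterozygote TAK-418 replicate 3, heterozygote vehicle replicate 2, wild type TAK-418 replicate 3 and wild type vehicle replicate 3, and are called the long-list libraries here. The other 12 H3K4me3 libraries, with barcodes of sets 3 and 4, had 302 to 2281 peaks. The 15 H3K4me1 libraries, whose barcodes were also of sets 1 and 2, had 88 to 456. The lists hold no read counts, so the depth behind a peak is unknown. Nearly everything visible at the protocadherins therefore rests on 1 library per group, which allows a description of these 4 libraries and no test between groups. The labelled tissue was checked at marker genes in the long-list libraries: 6 of 8 genes of hippocampal excitatory neurons were marked in all 4 and 8 of 8 in at least 1. The same counts, for all 4 and for at least 1, were 1 and 3 of 5 inhibitory neuron markers, 0 and 3 of 4 for astrocytes, 2 and 4 of 5 for the oligodendrocyte lineage, 0 and 1 of 4 for microglia, 1 and 2 of 3 for vascular cells, 2 and 2 of 3 for choroid plexus, and 0 and 1 of 3 for blood cells. Among these, the defining choroid plexus gene Ttr and the globin genes Hba-a1 and Hbb-bs had no peak in any of the 4 libraries. Of all 17331 genes 50.6% were marked in all 4 and 61.6% in at least 1, and several marker counts lie near these shares. Markers without a known strand, Ttr among them, were read at either end.

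Few protocadherin promoters carried a peak. Of the 57 members, 11 were marked in the heterozygote TAK-418 long-list library, 8 in that of heterozygote vehicle, 9 in that of wild type TAK-418 and 6 in that of wild type vehicle. These are 19.3%, 14%, 15.8% and 10.5% of the members, while 57.9%, 55%, 59% and 54.3% of all 17331 genes were marked in the same libraries, in the same order. In at least 1 of the 4 libraries 17 members (29.8%) had a peak, against 61.6% of all genes, and in all 4 libraries 4 members (7.0%) had one, against 50.6% of all genes. The remaining 40 members had no H3K4me3 peak in any of the 4.

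The neighbourhood itself was not empty of the mark. Of the 10 genes next to the locus, 5 on each side, 7 were marked in all 4 long-list libraries, among them Hars and Hars2 (histidyl-tRNA synthetases, under the same peak), Diaph1 (an actin nucleator) and Hdac3 (a histone deacetylase). The strand of the neighbours was not known, so they were read at either end, which gives a peak more room than at a member. The strongest peak at Hdac3 was thus that of Diaph1 in the wild type libraries and that of Rell2, at its other end, in those of heterozygotes. Only the strongest peak near a gene was read, and Diaph1 and Rell2 were each marked in all 4 libraries. A move of the peak with genotype can therefore not be read from these values. Between the beta and gamma clusters, at the end of Taf7 (a subunit of the general transcription factor TFIID), a peak stood in 3 of the 4 libraries. Its fold enrichment over background was 7.58 in the heterozygote TAK-418 library, 5.19 in the wild type TAK-418 library and 4.78 in the wild type vehicle library, and the heterozygote vehicle library had none. Slc25a2, a mitochondrial carrier gene beside Taf7, had no peak in any of them.

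**Figure D1:**
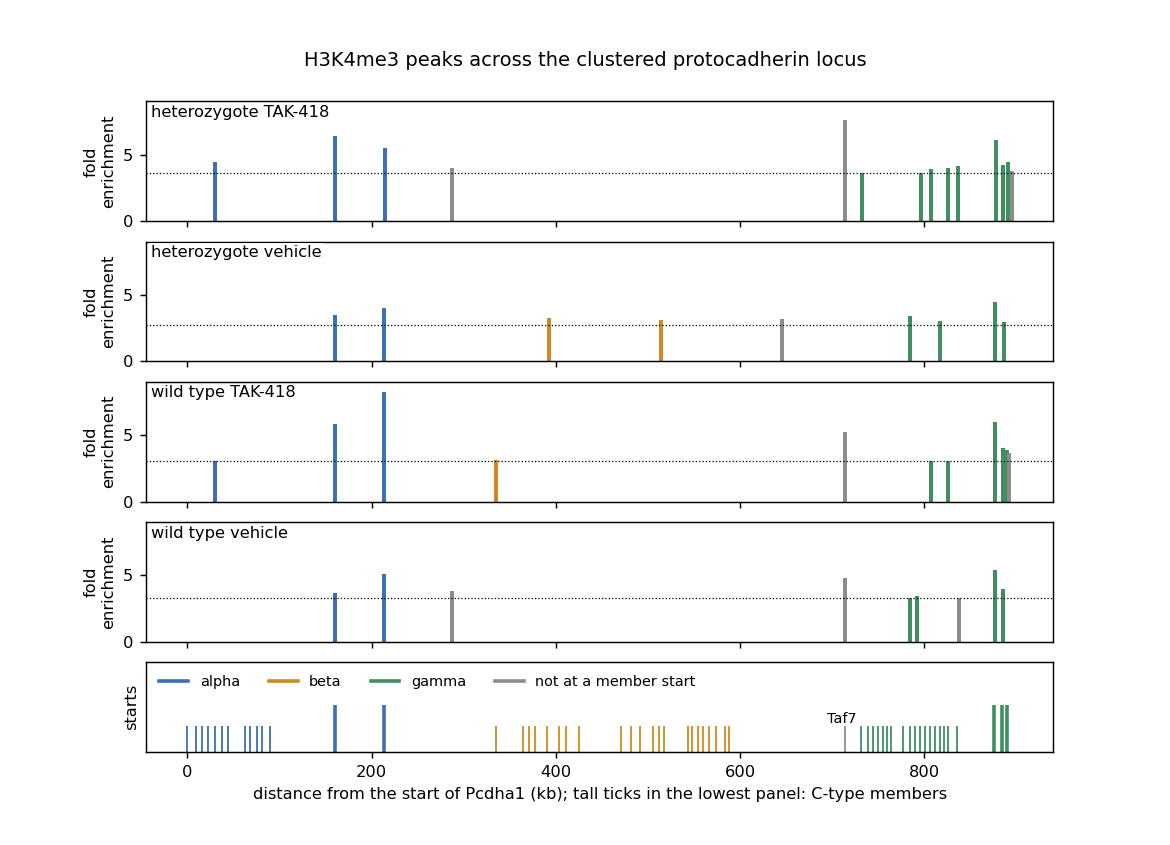
H3K4me3 peaks across the clustered protocadherin locus in the 4 long-list libraries, with distance from the start of Pcdha1 in kb on the horizontal axis and the authors' fold enrichment as bar height. Dotted lines are the lowest fold enrichment in that library's whole list, and the lowest panel gives the start of each member, with tall ticks for C-type members. Tall-ticked starts at the end of the alpha cluster, and the first 2 at the end of the gamma cluster, carried bars in every library, while the beta cluster had 3 bars in all.

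Marked promoters were counted in each cluster. In the gamma cluster 11 of 21 members had a peak in at least 1 of the 4 long-list libraries, in the alpha cluster 3 of 14 and in the beta cluster 3 of 22. The order of gamma and alpha rested on weak peaks: among peaks with a −log10 q of at least 5, where q is the authors' adjusted p of a peak, 1 gamma, 2 alpha and 0 beta members were marked. Genes of a cluster are not replicates, and the difference between clusters was not tested. By library, in the order heterozygote TAK-418, heterozygote vehicle, wild type TAK-418 and wild type vehicle, gamma members with a peak numbered 8, 4, 5 and 4, alpha members 3, 2, 3 and 2, and beta members 0, 2, 1 and 0. The C-type genes made up 4 of the 5 members that were marked in both vehicle libraries, and the fifth was the alternate Pcdhga7. Variable exons of these genes resemble one another, and the treatment of reads that match several places is not given in the sources used here, and its part in the low counts was not tested.

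All 5 C-type genes were marked, and 4 of them, Pcdhac1, Pcdhac2, Pcdhgc3 and Pcdhgc4, in all 4 long-list libraries. None of the 52 alternates was marked in all 4. The fold enrichment given here is the authors' value for each peak, the signal in the peak over the local background, and since each list had its own lowest value (3.60, 2.70, 3.04 and 3.30 in the order above) it ranks peaks only within a list. The rank is given as a percentile, the share of the list's peaks with a lower fold enrichment. Over the 4 libraries the C-type genes had 18 peaks with fold enrichments of 2.95 to 8.25 (median 4.44) and percentiles of 11.8 to 86.1 (median 46.0). The median C-type peak thus stood near the middle of its list.

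Pcdhac2, whose mouse protein guides the spacing of serotonin axons, lies at the very end of the alpha cluster (start 37143678). Its peak had a fold enrichment of 5.47 in the heterozygote TAK-418 library, 4.03 in the heterozygote vehicle library, 8.25 in the wild type TAK-418 library and 5.13 in the wild type vehicle library, at percentiles 45.7, 56.0, 86.1 and 46.3 of those lists. The value of the wild type TAK-418 library was the highest at any member in any library. Every one of these peaks lay over the gene start and they were 851 to 1579 bp wide. Pcdhac1, the other alpha C-type gene (start 37090136), had fold enrichments of 6.40, 3.48, 5.83 and 3.68 in the same order, also over the start, with narrower peaks of 363 to 772 bp. It stood at percentile 66.8 in the heterozygote TAK-418 list and at 11.8 in the wild type vehicle list, the widest spread in rank of the C-type genes.

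Pcdhgc3, which promotes the branching of cortical dendrites in the mouse, had a broad mark in every long-list library (start 37806410). Its fold enrichment was 6.06 in the heterozygote TAK-418 library, 4.46 in heterozygote vehicle, 5.96 in wild type TAK-418 and 5.37 in wild type vehicle, and its percentile stayed between 52.7 and 66.7. The peak was 2823, 2052, 2942 and 2111 bp wide in those libraries, wider than 93.5% to 96.6% of the peaks in each list. Pcdhgc3 was also the single member with a peak in any of the 12 libraries with short lists: wild type vehicle replicate 1 had a peak of 242 bp with a fold enrichment of 4.12, 384 bp downstream of the start (37806794 to 37807035). In those 12 libraries 0.1% to 8.7% of the other genes were marked.

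Pcdhgc4, the gamma isoform that interneurons of the mouse need for survival (start 37815079), was marked in all 4 long-list libraries at lower ranks. Fold enrichments were 4.19 in heterozygote TAK-418, 2.95 in heterozygote vehicle, 4.05 in wild type TAK-418 and 3.93 in wild type vehicle, at percentiles 18.9, 25.5, 26.7 and 17.4. The last gene of the array, Pcdhgc5 (start 37819546), had a peak within 2 kb in the TAK-418 libraries alone, with a fold enrichment of 4.43 in heterozygotes and 3.85 in wild type. In the heterozygote vehicle library the peak at Pcdhgc4 (37815255 to 37817486) ended just outside 2 kb of the Pcdhgc5 start. At a distance of 5 kb, 5 members instead of 4 were marked in all 4 long-list libraries. In the heterozygote TAK-418 library the Pcdhgc5 peak covered 3220 bp downstream of the start, and in the wild type TAK-418 library 328 bp. The latter library had a separate peak of 389 bp (37822058 to 37822446) within the stretch that the heterozygote TAK-418 peak covered.

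**Figure D2:**
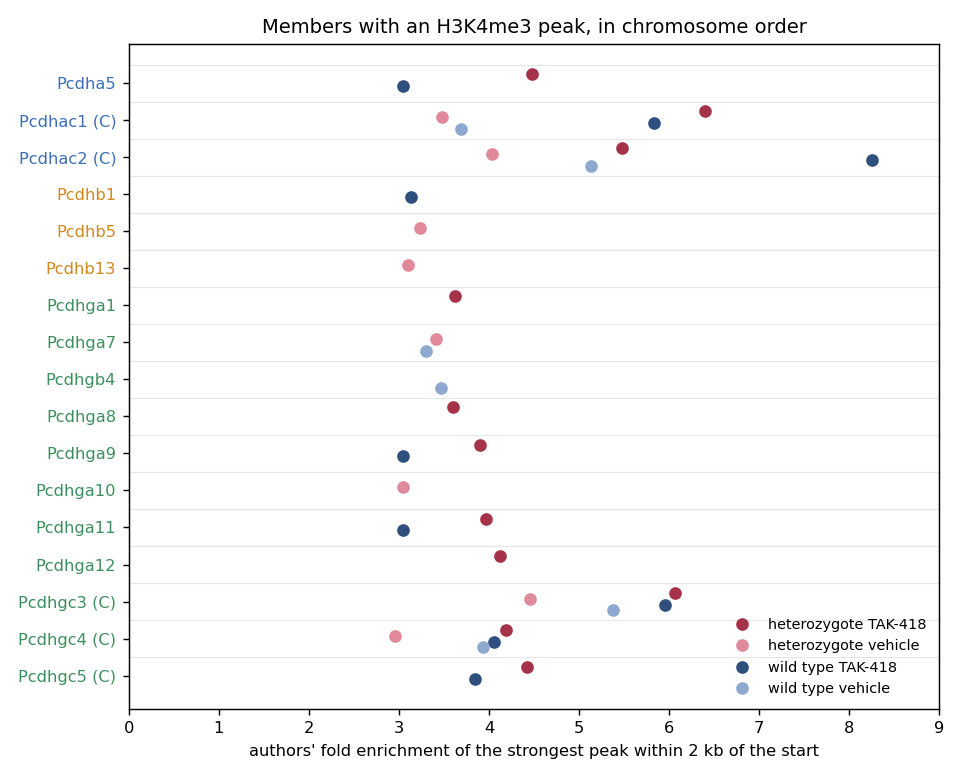
The 17 members with an H3K4me3 peak in at least 1 long-list library, in chromosome order from top to bottom, with the authors' fold enrichment of the strongest peak within 2 kb of the start on the horizontal axis. Each point is 1 library, a missing point means no peak, and (C) marks C-type genes. Points of alternates lie between 3.04 and 4.48, and those of C-type genes between 2.95 and 8.25.

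Peaks at alternates were few and mostly of low rank. Of 52 alternates 12 were marked in at least 1 long-list library: 8 in a single library and 4 in a pair. Their 16 peaks had fold enrichments of 3.04 to 4.48 (median 3.36) and percentiles of 0 to 39.3 (median 10.6), and were 271 to 831 bp wide (median 388.5 bp, against 1152 bp for the 18 C-type peaks). Only 2 of the 16 lay over the start, at Pcdha5 in the wild type TAK-418 library and at Pcdhga11 in the heterozygote TAK-418 library, and the other 14 began 13 to 1958 bp downstream (median 318 bp). Of the 18 C-type peaks 14 lay over the start and 4 began 90 to 350 bp downstream. No member peak lay upstream of its start. In the heterozygote vehicle list the 4 alternates stood at percentiles 28.6 to 39.3 (median 32.2), all above the C-type gene Pcdhgc4 at 25.5, though below the other 3 C-type genes there. Median fold enrichments of alternates in the 4 libraries were 3.93 (heterozygote TAK-418), 3.17 (heterozygote vehicle), 3.04 (wild type TAK-418) and 3.38 (wild type vehicle), those of C-type genes 5.47, 3.76, 5.83 and 4.53, and those of other marked genes 6.19, 4.35, 6.40 and 5.53.

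**Figure D3:**
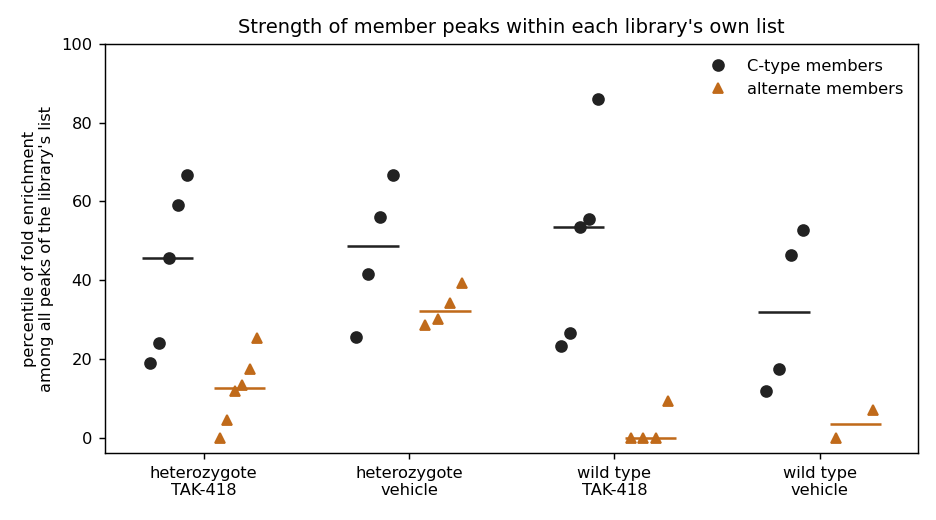
Rank of each member's peak among all peaks of its own library, as the percentile of fold enrichment (vertical axis, 0 to 100), for C-type members (circles) and alternates (triangles) in the 4 long-list libraries, with a line at each median. Alternates in the wild type TAK-418 and wild type vehicle libraries lie at or below percentile 9.2, those in the heterozygote vehicle library between 28.6 and 39.3, and C-type genes reach 86.1.

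Within the gamma cluster the marked alternates were mostly of the A type: 7 of 12 A genes (Pcdhga1, Pcdhga7, Pcdhga8, Pcdhga9, Pcdhga10, Pcdhga11 and Pcdhga12) against 1 of 6 B genes (Pcdhgb4). Apart from Pcdhga1, the first gene of the array, all of them start at or downstream of position 37714834. In the heterozygote TAK-418 library Pcdhga12 had the highest fold enrichment of the gamma alternates, 4.13 (percentile 17.5), Pcdhga11 reached 3.97 and Pcdhga9 3.90, and both stood at 3.04, the lowest value in the list, in the wild type TAK-418 library. Pcdhga1 (3.63) and Pcdhga8 (3.60, the lowest value in the list) were marked in the heterozygote TAK-418 library alone. Pcdhga7 was marked in the vehicle libraries, at 3.41 in heterozygotes (percentile 39.3, the highest rank of an alternate in any list) and 3.30, again the lowest in the list, in wild type. Pcdhga10 had a peak in the heterozygote vehicle library (3.05, percentile 28.6) and Pcdhgb4 in the wild type vehicle library (3.46, beginning 1958 bp downstream of the start). The gamma genes with no peak were Pcdhga2, Pcdhga3, Pcdhga4, Pcdhga5, Pcdhga6, Pcdhgb1, Pcdhgb2, Pcdhgb5, Pcdhgb6 and Pcdhgb7.

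In the alpha cluster 1 of 12 alternates, Pcdha5, was marked, at 4.48 in the heterozygote TAK-418 library (percentile 25.2) and at 3.04 in the wild type TAK-418 library (percentile 0). The other 11, Pcdha1 to Pcdha4 and Pcdha6 to Pcdha12, had no peak. In the beta cluster the marked genes were Pcdhb1 (3.13, wild type TAK-418, 78 bp downstream of the start), Pcdhb5 (3.23) and Pcdhb13 (3.10), both in the heterozygote vehicle library and 1838 and 1551 bp downstream of their starts. The other 19, Pcdhb2 to Pcdhb4, Pcdhb6 to Pcdhb12 and Pcdhb14 to Pcdhb22, had none. The heterozygote vehicle list, which gave the pair of beta genes, also reached down to the lowest fold enrichment of the 4 lists, 2.70, and 22.0% of its peaks reached a −log10 q of 5, against 48.4% to 55.1% in the other 3.

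With only peaks that reached a −log10 q of 5, a stricter limit than that of the lists, the member counts fell to 3 in the heterozygote TAK-418 library, 0 in heterozygote vehicle, 3 in wild type TAK-418 and 1 in wild type vehicle. Of all 17331 genes 41%, 16.9%, 40.7% and 30.2% were marked under that limit in the same libraries, 48.6% in at least 1 and 12.5% in all 4. Those left were the C-type genes Pcdhac1, Pcdhac2 and Pcdhgc3, with 0 of 52 alternates. No member was then marked in all 4.

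**Figure D4:**
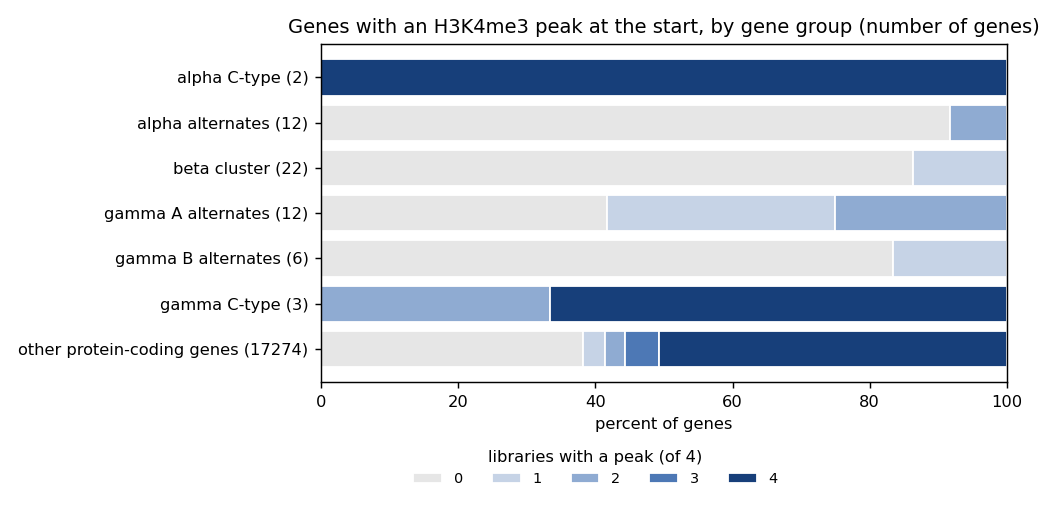
Share of genes (horizontal axis, percent) with an H3K4me3 peak at the start in 0, 1, 2, 3 or 4 of the 4 long-list libraries, for each kind of protocadherin gene and for the 17274 other protein-coding genes. Alpha C-type genes and 2 of 3 gamma C-type genes were marked in all 4, as were 50.8% of other genes, and no alternate or beta gene was marked in more than 2.

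Some peaks in the locus lay away from every member's start. In the interval between the alpha and beta clusters the heterozygote TAK-418 library had a peak at 37217195 to 37217546 and the wild type vehicle library one at 37217617 to 37217941, 28298 and 28720 bp beyond the shared end of the alpha genes, with fold enrichments of 4.03 and 3.82. An enhancer that acts on the alpha genes is known downstream of their constant exons. Its position was not in the sources used here, and its overlap with these peaks was not tested. The heterozygote vehicle library had a peak at 37575974 to 37576265, beyond the beta cluster. Within the gamma cluster the wild type vehicle library had one at 37767851 to 37768330, just outside the 2 kb of Pcdhga12 at a distance of 2271 bp, and the TAK-418 libraries had one each downstream of Pcdhgc5, at distances of 5479 bp in heterozygotes and 2512 bp in wild type.

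Members with a peak in 2 of the long-list libraries were compared by treatment and genotype. Pcdha5, Pcdhga9, Pcdhga11 and Pcdhgc5 had a peak in both TAK-418 long-list libraries and in neither vehicle library, a pattern that 1.43% of all 17331 genes showed. Pcdhga7 showed the opposite one, with a peak in both vehicle libraries and neither TAK-418 library, which 0.0866% of all genes (15 genes) did. Of the 5 members with a peak in exactly 2 of the libraries 4 thus had both TAK-418 libraries, against 243 of 514 other genes (47.3%) and 47.6% of members and other genes together. In 3 of these 4 members (Pcdha5, Pcdhga9 and Pcdhga11) the wild type TAK-418 peak had the lowest fold enrichment in its list, 3.04. For Pcdhgc5 the pattern rested on the 2 kb limit: in the heterozygote vehicle library a peak ended just outside it. No member had a peak in both heterozygote libraries and neither wild type library, as 0.312% of all genes had, or the reverse, as 0.323% had. Both TAK-418 against both vehicle libraries, or both heterozygote against both wild type libraries, is a comparison of 2 against 2, in which an exact two-sided test cannot give a p below 0.333, so none was run.

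At the 4 C-type genes marked in all of the long-list libraries, the deposited fold enrichment was higher with TAK-418 than with vehicle in both genotypes, but in heterozygotes the rank within the list was mostly lower. For Pcdhac1 it was 6.40 against 3.48 in heterozygotes and 5.83 against 3.68 in wild type, for Pcdhgc3 6.06 against 4.46 and 5.96 against 5.37. The same direction was found at 72.1% of all 8774 genes marked in all 4 libraries, at 93.7% of them in heterozygotes and at 77% in wild type. In heterozygote vehicle none of the 4 had a higher value than in wild type vehicle, and 16.6% of all such genes did. By percentile, in heterozygotes 3 of the 4 stood lower with TAK-418 than with vehicle: Pcdhac2 at 45.7 against 56.0, Pcdhgc3 at 59.0 against 66.7 and Pcdhgc4 at 18.9 against 25.5, while Pcdhac1 stood at 66.8 against 41.5. In wild type all 4 stood higher with TAK-418, with Pcdhac2 at 86.1 against 46.3 and Pcdhgc3 at 55.5 against 52.7. Median fold enrichments over all peaks of a list were 5.66 (heterozygote TAK-418), 3.80 (heterozygote vehicle), 5.58 (wild type TAK-418) and 5.27 (wild type vehicle). The part of the lists' own scales in the higher values at the members was not tested.

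Over all 16 H3K4me3 libraries, the number of libraries of a group with a peak at a gene was tested by the two-sided Fisher's exact test, adjusted by Benjamini-Hochberg over all genes that were marked in at least 2 and unmarked in at least 2 of the 8 libraries. The comparison of heterozygotes with wild type mice, both on vehicle, tested 8912 genes. That of TAK-418 with vehicle tested 9196 genes in heterozygotes and 9318 in wild type, and that of treated heterozygotes with wild type vehicle tested 9256. None was called in any comparison (0% of the genes tested), and 0 had an unadjusted p under 0.05. Pcdhac1, Pcdhac2, Pcdhgc3 and Pcdhgc4 entered all 4 comparisons and Pcdhga7 that of the vehicle groups. Each had a peak in 1 of 4 libraries on both sides, except that Pcdhgc3 had 2 of 4 in wild type vehicle, and the exact p was 1 for all. The smallest p that 4 libraries against 4 can give is 0.0286, and the smallest found at any gene was 0.143. After adjustment over so many genes a call was all but out of reach, so its absence is no result about the genes. Libraries with short lists held few gene starts, so a difference at the protocadherins was not detectable in them.

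No member lay at a region that the authors listed as differential. Their 4 lists for H3K4me3 hold 2015 regions for heterozygotes against wild type mice on vehicle, 1715 for TAK-418 against vehicle in heterozygotes, 2780 for TAK-418 against vehicle in wild type, and 2722 for treated heterozygotes against wild type vehicle. A region lay within 2 kb of 7.07%, 4.1%, 9.61% and 9.49% of all gene starts in that order, and of 0 of 57 members in each. Among the 8774 genes marked in all 4 long-list libraries the shares were 13.9%, 7.9%, 18.7% and 18.6%, and for the 4 C-type genes among them again 0 of 4. The nearest listed region was 454.9 kb from the locus for TAK-418 against vehicle in heterozygotes and 368.8 to 368.9 kb from it in the other 3 lists, although the lists held 40 to 82 regions on chromosome 18. The lists' group scores therefore gave no value at a protocadherin promoter.

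The other mark of the study gave no peak in the locus. None of the 15 H3K4me1 libraries had a peak between the first and the last member, and none of the 4 lists taken as H3K4me1 had a region there. With 88 to 456 peaks a library in the whole genome, these lists could not show whether the mark was present.

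Relatives and regulators of the clustered genes were read in the same libraries, in which 50.6% of all genes were marked in all 4. Of 12 protocadherin genes outside the clusters, 9 had an H3K4me3 peak in all 4 long-list libraries and 11 in at least 1, with Pcdh12 (of blood vessel walls) the exception. Of 15 genes taken here as regulators of clustered protocadherin choice, 12 were marked in all 4. The role of each gene in that choice was not checked. Marked were Ctcf, the cohesin genes Rad21, Smc3 and Stag2, and the cohesin loader Mau2. The others were the cohesin release factor Wapl and its partners Pds5a and Pds5b, the silencers Smchd1, Dnmt3b and Setdb1, and the neuronal repressor Rest. Smc1a was marked in 3, and Stag1 and Nipbl in none. Of these genes 3 relatives and 4 regulators had no known strand and were read at either end, which gives a peak more room than at a member. Among those read at the start alone 8 of 9 relatives and 9 of 11 regulators were marked in all 4, and their difference from the members was not tested.

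Of the 15 regulators 3, 4, 3 and 7 had a listed H3K4me3 region in the 4 comparisons, in the order of the lists above, and of the 12 relatives Pcdh1 alone had one, in the last 2. In limma with Benjamini-Hochberg adjustment over each whole list, on log2(score + 1) of the authors' 4 scores per group, 0 regions of any list passed an adjusted p of 0.05 (0% of the regions tested), with 66, 3, 49 and 104 regions under an unadjusted p of 0.05 in the order of the lists above. The lists hold only regions that the authors had selected as differential between the same groups. How many regions differ can therefore not be read from the 0 or from the unadjusted counts. The unadjusted counts rested on single scores: without 1 score position in turn they ranged from 21 to 540, 2 to 181, 19 to 476 and 23 to 1229, the highest of them without position 2 of heterozygote vehicle in the first list and without position 3 of the TAK-418 group in each of the others. Those positions bear the same numbers as the long-list replicates of their groups. Position 3 of wild type vehicle bears that of its long-list replicate as well. Without it the counts were 35 for heterozygotes against wild type mice on vehicle and 90 for TAK-418 against vehicle in wild type. For treated heterozygotes against wild type vehicle the count was then 23, the lowest of that list. Without position 2 of heterozygote vehicle, the count for TAK-418 against vehicle in heterozygotes was 17. The scores do not name their library, so whether they belong to those replicates is not known and was not tested. Rest, Rad21 and Smc3 each had a region in 3 lists and were singled out after their values were seen. At Rest (chromosome 5, 77265901 to 77266650) the scores were 71, 129, 43 and 123 in heterozygote vehicle, against 106, 214, 206 and 147 in wild type vehicle. The groups overlapped, with means of 91.5 ± 41.5 and 168 ± 51.1 (SD, n = 4 each). The difference of −0.95 on the log2 scale (SE 0.61) had an adjusted p of 0.57 in limma and an exact permutation p of 0.0857. The other 8 differences at these genes lay between −1.29 (Rad21, TAK-418 against vehicle in heterozygotes) and 0.81 (Smc3, TAK-418 against vehicle in wild type) on that scale, with adjusted p-values of 0.572 to 0.853 in limma.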

How the data were processed

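The authors deposited 1 peak list per library, in the MACS2 broad-peak layout. The submitters' processing notes name mm10, MACS2, MACS and bedtools, with no version or role. Each deposited peak has a ratio (its fold enrichment) and, as −log10 values of the authors, its p and q. The deposited differential lists give 1 whole-number score per library, without naming the library; they were taken as normalized read scores and compared only within a list. The aligner, peak threshold and score normalization are not given in the sources used here.

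Genes came from RefSeq GRCm38.p6 (the assembly of mm10). That table has no strand, so a member's start was its lower coordinate: upper ends agree within 1240 bp in the alpha and 10 bp in the gamma cluster. For beta genes, which share no end, the lower coordinate was assumed. Read at either end, 3 beta genes were marked in at least 1 long-list library, the same count. Other genes took their strand from RefSeq promoter entries, and listed or neighbouring genes without one were read at either end. No such entry was available for the members' chromosome, so the 17331 genes hold none of it but the members. The pseudogene Pcdhgb8 and the readthrough models Gm37013, Gm38666 and Gm38667 were left out.

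Tests used limma 3.58.1 in R 4.3.3 and scipy 1.17.1 in Python 3.11.15, with pandas 2.3.3, numpy 2.4.6 and matplotlib 3.10.9, with a pseudocount of 1, and the tests were tried on simulated data. Named genes are the C-type members, each cluster's highest and lowest, members with no peak or at a listed region, and marked members. The members and lists were chosen with earlier results of these data known. Member sequences are not printed here. Alternatives were other distances, a −log10 q minimum, other assignments of peaks, other pseudocounts, scalings and score minimums, and leaving out libraries.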

Additional observations from a re-analysis of the deposited data

Results flagged for a closer look

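In groups of 4 libraries or scores, 22 of which were examined, 6 had a value far from the other 3. Chance flags about 1 group in 20, a rate that does not apply to the 4 counts of members, which restate the split between long and short peak lists. The number of members with an H3K4me3 peak per library was 11 in heterozygote TAK-418 replicate 3, 8 in heterozygote vehicle replicate 2, 9 in wild type TAK-418 replicate 3 and 6 in wild type vehicle replicate 3, while the other 3 libraries of each group had 0 (1 in wild type vehicle replicate 1). These 4 are the H3K4me3 libraries with index barcodes of sets 1 and 2. At Smc3 a score of 345 stood apart from 115, 121 and 134 in wild type TAK-418, in the list that compares it with wild type vehicle. At Rest a score of 451 stood apart from 115, 94 and 87 in heterozygote TAK-418, in the list that compares it with wild type vehicle. Both scores stood at position 3, the number of the long-list replicate of their group. Whether they belong to those libraries is not known, and a link was not tested.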

How the results depend on the processing

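Of 110 alternative values for the members, 96 stayed within 1.5 times the count or the spread reported and 14 moved. Of 99 for the regions at Rest, Rad21 and Smc3, 91 kept their direction and 8 changed sign. None of these regions was called in any setting, so the 91 speak of direction only. Some of the 96 could not move and show no stability. Examples are the 0 members at a listed region with other distances, and alpha and gamma counts when beta genes were read at either end. The 40 alternative counts of the Fisher test were all 0, which the small groups all but fix, and show no stability. A −log10 q of at least 5 moved the most: members per long-list library became 3 (heterozygote TAK-418), 0 (heterozygote vehicle), 3 (wild type TAK-418) and 1 (wild type vehicle), and in at least 1 of them beta members 0, gamma members 1, C-type members 3 and alternates 0, with 0 marked in all 4 and 0 in the libraries with short lists. A distance of 0.5 kb left 1 beta member and 7 alternates, and 1 kb left 1 beta member. Without 1 long-list library in turn, beta members ranged from 1 to 3 (1 without heterozygote vehicle replicate 2), gamma members from 8 to 11 and alternates from 9 to 11, while alpha members stayed at 3 and C-type members at 5. In limma, leaving out 1 score position gave 0 to 3 called regions for treated heterozygotes against wild type vehicle: 3 without position 4 of heterozygote TAK-418 and 1 without position 2 of wild type vehicle. Without 1 score position the log2 difference at Smc3 ranged from −0.32 to 1.05 (below 0 also at −0.23 and −0.05) for TAK-418 against vehicle in heterozygotes, and from −0.17 to 0.92 (below 0 also at −0.05) for treated heterozygotes against wild type vehicle. That at Rest ranged from −0.31 to 0.57 (below 0 also at −0.02) for TAK-418 against vehicle in heterozygotes, and was 0.02 with equal medians per position for treated heterozygotes against wild type vehicle. The cause was not tested. No paired analysis was possible because the groups hold different mice and the scores do not name their library. The lists give no counts, so depth limits every absence of a peak to an unknown degree.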
